A study of Mus musculus with 16 samples.

Results

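The semaphorins, plexins and neuropilins are a family of axon guidance ligands and their receptors. Every gene whose symbol has the form Sema3 to Sema7 with a letter a to g, Plxna, Plxnb, Plxnc or Plxnd with a number, or Nrp1 or Nrp2 was taken where both count tables list it. This gave 31 genes of the 26371 symbols shared by the tables: 20 semaphorin ligands, 9 plexins and 2 neuropilins. No measured value entered the choice.

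Semaphorins are secreted or membrane-bound proteins that steer growing axons and dendrites, mostly by repulsion, and that later shape and remove synapses. Plexins are their signalling receptors. The secreted class 3 members bind neuropilins, which hold no enzymatic activity and pair with A-type plexins or Plxnd1, while the membrane-bound classes 4 to 7 mostly bind plexins directly. Sema7a, which is anchored to the membrane by a lipid, binds Plxnc1 and integrins, and Sema3e can bind Plxnd1 without a neuropilin. In cortical cultures these genes are transcribed in neurons and in glia.

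The study silenced Nup153, a nucleoporin of the nuclear pore basket, in primary cortical neurons of C57/BL6 mice by AAV-delivered short hairpins. Embryos of 1 litter, at embryonic day 17.5 to 19.5, were pooled for each replicate. All cultures were infected on day 8 in vitro and collected on day 13. The libraries with a usable column were silenced shNup153-2 (n = 3) and silenced shControl (n = 3), kept in 1 to 2 µM TTX over the last 24 hours and in 100 µM D-AP5 over the last 6, and basal shNup153-2 (n = 2), basal shNup153-1 (n = 2) and basal shControl (n = 4), which had neither drug. TTX blocks voltage-gated sodium channels, which carry spikes, and D-AP5 blocks NMDA receptors. Each group was taken from the sample titles, since the free-text descriptions name the control virus for every library. The cultures hold more than neurons, and with bulk RNA fewer cells of a type and less RNA per cell cannot be told apart.

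Libraries held 26863535 to 56299817 counted fragments. Levels are given in CPM, the count of a gene scaled to a common library size with trimmed-mean (TMM) factors over the 14 libraries. Nup153 was at 10.6, 13.4 and 9.38 CPM in silenced shNup153-2 libraries and at 64.2, 52.1 and 61.8 CPM in silenced shControl libraries. At basal state it was at 13.5 and 11.6 CPM with shNup153-2, at 17.1 and 28 CPM with shNup153-1 and at 94.5, 52.9, 77.8 and 56.8 CPM with shControl. The submitters sequenced only cultures with sufficient knockdown, so these values check the labels and are not a result. Neuron markers summed to 4329 to 7533 CPM over all libraries. Astrocyte markers were also present, with sums of 256 to 1385 CPM in silenced shNup153-2 libraries, 242 to 1217 CPM in silenced shControl libraries, 2345 to 2719 CPM with basal shNup153-2, 1186 to 3049 CPM with basal shNup153-1 and 468 to 2612 CPM with basal shControl. Replicate 2 of both silenced groups stood apart from replicates 1 and 3 at several members, and results that rest on it are given with and without it. The shNup153-1 columns leave register with the gene names below line 16419 of the basal table, and 16399 lines were used for that hairpin; all 31 members lie within them.

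Per kilobase of exon, the receptor Plxnd1 was the highest member in every group but basal shNup153-1. In basal shControl libraries Plxnd1, a receptor for class 3 semaphorins in neurons and vessels, was highest at 62.3 ± 18.1 CPM per kb (SD, n = 4). Sema7a followed at 24.9 ± 6.92 and Plxna1 at 22.2 ± 4.70 CPM per kb. These were followed by Plxna4 at 17.5 ± 6.44, Plxnb2 at 16.2 ± 6.09, Plxnc1 at 15.9 ± 9.23 and Plxna2 at 15.3 ± 3.24 CPM per kb, and from Sema7a to Plxna2 each member differed from the next by less than the larger of the SDs of the pair. The ends of the order were Sema3g at 0.0427 and Plxnb3 at 0.00833 CPM per kb, near the limit of detection. Sema6b ranked 8 with 10.6 ± 1.82 CPM per kb in basal shControl libraries, whereas it ranked 3 in silenced shNup153-2 (63.3 ± 10.4 CPM per kb, n = 3) and in silenced shControl libraries (33.2 ± 1.75 CPM per kb, n = 3). In basal shNup153-1 libraries Plxnd1 ranked 4 at 20.6 ± 8.19 CPM per kb (n = 2) and the ligands Sema7a and Sema6b ranked 1 and 2.

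**Figure D1:**
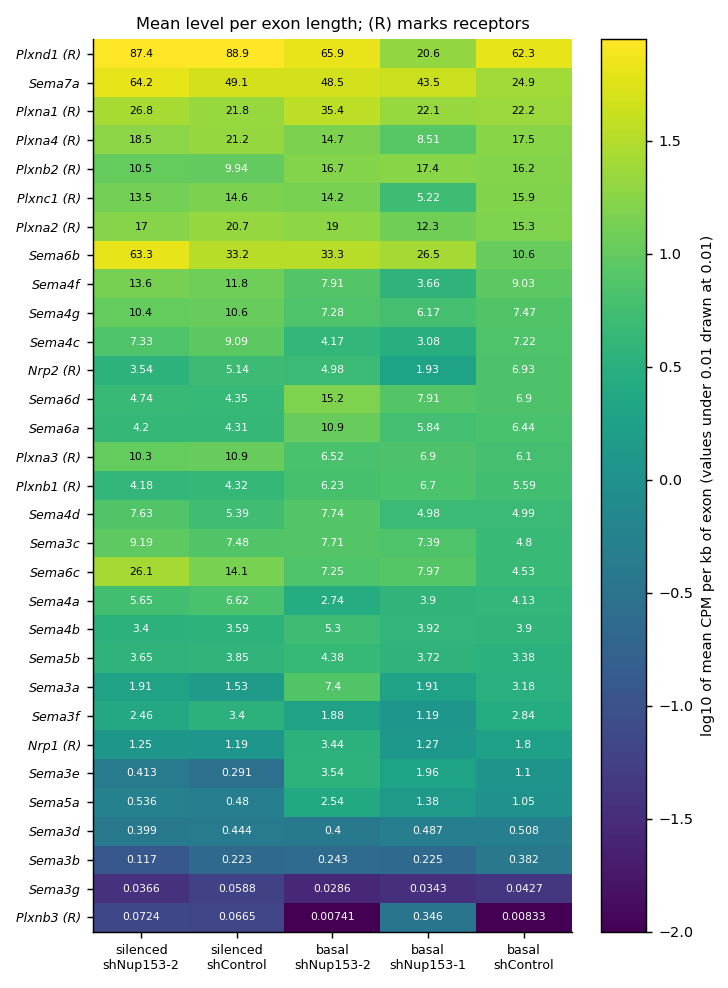
Mean level per kilobase of exon of each semaphorin, plexin and neuropilin gene in the 5 groups (columns), printed in CPM per kb and coloured on a log10 scale, with receptors marked (R) and rows in the order of basal shControl. Plxnd1 and Sema7a are high in most groups, Sema6b is higher in each of the other groups than in basal shControl, and Sema3g and Plxnb3 sit at the low end.

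With shNup153-2 at basal state, 4 semaphorin ligands rose and no receptor passed the test. Of 29 members tested, 4 rose and 0 fell, all 4 of them ligands: Sema6b, Sema3a, Sema3e and Sema6d. Over all 19682 genes tested, 5.91% rose and 3.64% fell (edgeR quasi-likelihood test, Benjamini-Hochberg (BH) adjusted p under 0.05). The median log2 fold change was 0.60 over the 19 ligands tested and 0.06 over the 10 receptors tested, against -0.03 over all genes. By an unadjusted p under 0.05, 11 of the 19 ligands and 1 of the 10 receptors would be counted, beside 28.9% of all genes. Sema3g and Plxnb3 were too low to be tested here.

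Sema6b encodes a transmembrane semaphorin that binds A-type plexins. It was at 142 and 122 CPM in basal shNup153-2 libraries, against 39.2, 47.9, 33.4 and 48.3 CPM in basal shControl libraries. The groups did not overlap, and the log2 fold change was 1.61 (SE 0.21, edgeR BH-adjusted p = 0.00633).

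Sema3a, the secreted ligand that collapses growth cones through Nrp1 and A-type plexins, was at 108 and 97.6 CPM in basal shNup153-2 libraries and at 55.1, 35.7, 47.5 and 38.1 CPM in basal shControl libraries. Both knockdown libraries were above every control library (edgeR log2 fold change 1.19 ± 0.21 SE, BH-adjusted p = 0.0148). Sema3e, the Plxnd1 ligand, was at 29.7 and 36 CPM in basal shNup153-2 libraries and at 9.54, 6.85, 15.8 and 8.88 CPM in basal shControl libraries. Again the groups did not overlap (edgeR log2 fold change 1.65 ± 0.30 SE, BH-adjusted p = 0.0173). Sema6d, a transmembrane ligand of Plxna1, was at 169 and 151 CPM in basal shNup153-2 libraries, against 98.9, 45.9, 79.3 and 67.6 CPM in basal shControl libraries. Its log2 fold change of 1.11 (SE 0.27, edgeR BH-adjusted p = 0.0437) was nearest the threshold of the 4. Sema6d did not pass with no filter on low counts (edgeR BH-adjusted p = 0.0515) or in a fit of the 3 basal groups together (0.0698).

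None of the 4 passed without basal shNup153-2 replicate 1 or replicate 2. Each of these fits leaves a single knockdown library, which is assumed to vary like the controls. Of all genes too, fewer passed in each of them than in the full fit. Without basal shControl replicate 4 only Sema6b passed (edgeR BH-adjusted p of the others 0.0517 to 0.114). Without basal shControl replicate 3 Sema6d did not pass (0.0656). Of all genes, 650 were called without basal shControl replicate 4 and 1629 without replicate 3, against 1880 in the full fit. Over the 6 fits that left out 1 library, log2 fold changes were 1.498 to 1.728 for Sema6b and 1.10 to 1.31 for Sema3a. They were 1.51 to 1.93 for Sema3e and 0.94 to 1.29 for Sema6d. The fit without basal shControl replicate 2 called 7 members and 2020 of all genes, against 4 and 1880 in the full fit. That library's astrocyte marker sum of 468 CPM was the lowest of the basal libraries. Sema3a and Sema6d were both ordered among the 4 control libraries as the astrocyte sum was, highest in replicate 1, then replicate 3, replicate 4 and replicate 2. Sema6b and Sema3e were not. The order is not particular to called ligands: Nrp1, Sema4b, Sema4d, Sema5a, Sema6a, Plxna1, Plxna2, Plxnb1, Plxnb2 and Nup153 shared it. GABAergic neuron markers summed to 1103 to 1154 CPM in basal shNup153-2, to 1230 to 1902 CPM in basal shNup153-1 and to 586 to 1025 CPM in basal shControl libraries, and neither knockdown overlapped the control. The part of astrocyte or GABAergic neuron RNA in the differences of either basal knockdown was not tested.

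The 250 bases before the first-listed RefSeq start of each of these 4 ligands are printed because these 4 passed the test with basal shNup153-2. They come from the RefSeq promoter table (build GRCm38.p6), 5′ to 3′ on the gene's own strand, with matches to the GC box GGGCGG or its reverse complement CCGCCC in capitals. The Sema6b window is chr17:56140344-56140593 on the minus strand and the Sema6d window chr2:124089719-124089968 on the plus strand. The Sema3e window is chr5:14025026-14025275, also plus, and like those of Sema6b and Sema6d it lies directly before the gene as GENCODE vM21 draws it. The Sema3a window, chr5:13396534-13396783 on the plus strand, lies inside the longer gene span that GENCODE vM21 gives (13125414 to 13602565).
Sema6b: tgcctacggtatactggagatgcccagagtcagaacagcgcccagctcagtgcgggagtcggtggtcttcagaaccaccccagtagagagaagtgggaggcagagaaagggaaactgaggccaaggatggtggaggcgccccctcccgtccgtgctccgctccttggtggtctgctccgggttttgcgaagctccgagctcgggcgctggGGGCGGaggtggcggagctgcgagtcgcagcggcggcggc
Sema3a: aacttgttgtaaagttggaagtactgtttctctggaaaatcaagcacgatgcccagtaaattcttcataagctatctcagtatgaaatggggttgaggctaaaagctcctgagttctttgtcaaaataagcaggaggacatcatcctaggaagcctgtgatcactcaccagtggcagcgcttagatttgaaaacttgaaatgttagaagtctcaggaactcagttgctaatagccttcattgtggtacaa
Sema3e: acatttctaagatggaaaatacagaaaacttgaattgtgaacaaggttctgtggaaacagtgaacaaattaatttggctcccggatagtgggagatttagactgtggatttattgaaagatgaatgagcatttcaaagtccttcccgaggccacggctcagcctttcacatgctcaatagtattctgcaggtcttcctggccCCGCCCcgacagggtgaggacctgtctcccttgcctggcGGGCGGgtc
Sema6d: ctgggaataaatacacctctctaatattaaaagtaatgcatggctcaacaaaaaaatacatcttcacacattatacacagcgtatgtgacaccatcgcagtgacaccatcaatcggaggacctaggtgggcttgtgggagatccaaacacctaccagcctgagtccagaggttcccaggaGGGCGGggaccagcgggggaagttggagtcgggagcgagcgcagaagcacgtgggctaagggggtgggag

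The windows of Sema6b and Sema6d hold 1 GC box each, that of Sema3e holds 2 and that of Sema3a none. Their GC contents are 66% for Sema6b, 40.8% for Sema3a, 48% for Sema3e and 52.4% for Sema6d, and the median over all promoter windows is 52.4%. Across the family, 26 of 31 members matched the table, with 37 windows; Plxna1, Plxna4, Sema3b, Sema3f and Sema6a were not matched. A GC box was found on either strand in 27 of the 37 windows and in 32.7% of all 32851 windows. The cAMP response element TGACGTCA was in 0 of the 37 windows and in 1.55% of all, its core TGACG (which the full element holds) in 1 and in 17.8%, the AP-1 motif TGANTCA in 3 and in 6.75%, and CCAAT in 7 and in 33.8%. These matches describe the letters only.

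**Figure D2:**
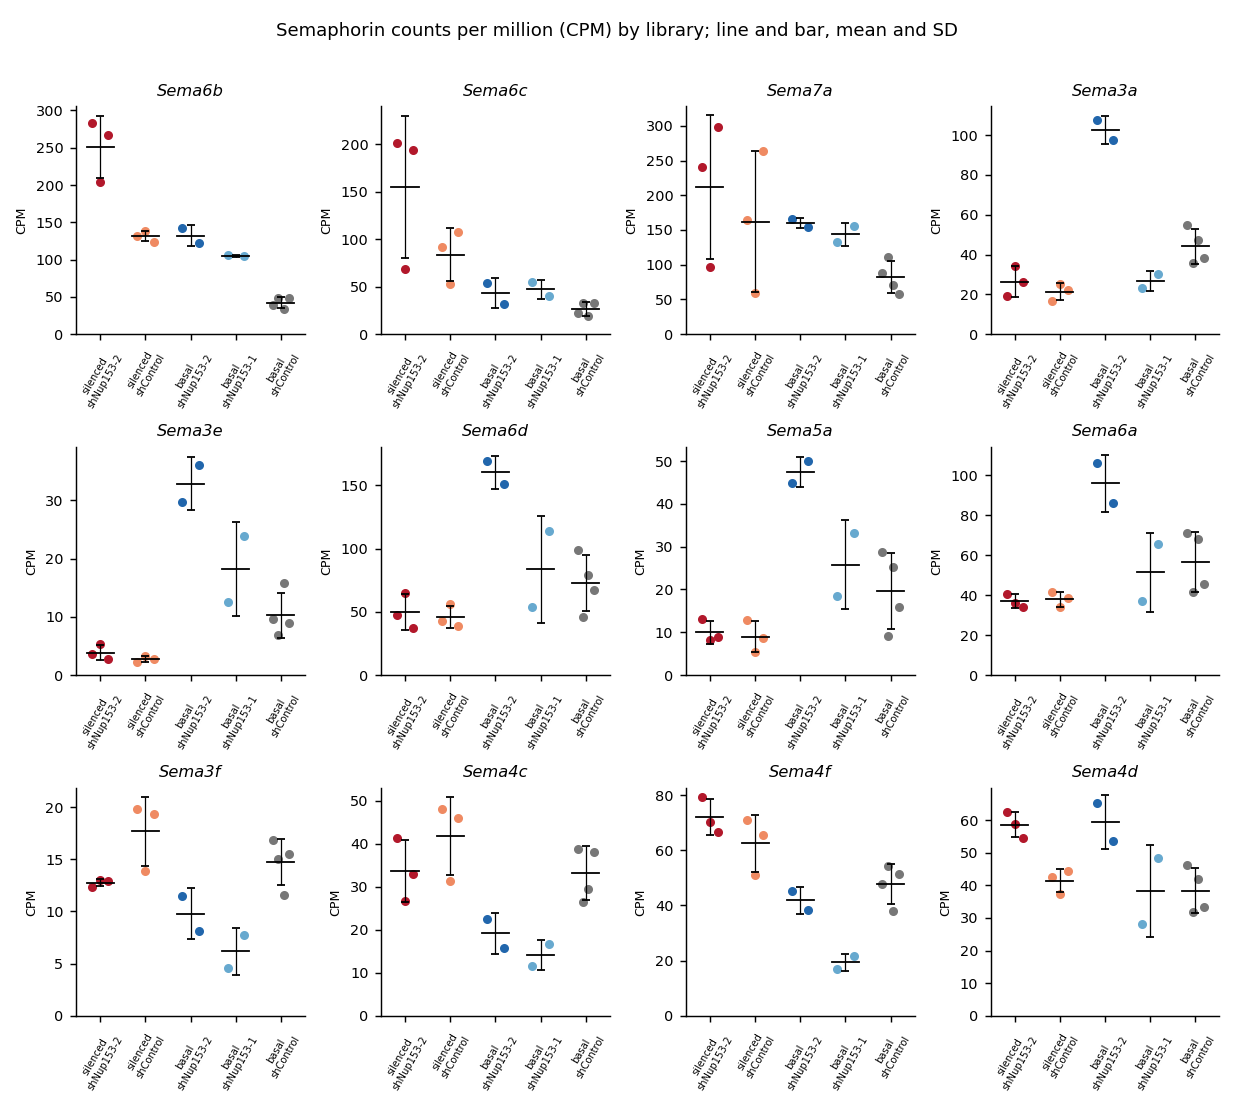
CPM of 12 of the 20 semaphorin ligands in each of the 14 libraries, by group, with points for libraries and a line and bar for the mean and SD; the y axes differ between genes. Sema6b lies at 122 to 142 CPM in basal shNup153-2, at 104 to 106 CPM in basal shNup153-1 and at 33.4 to 48.3 CPM in basal shControl libraries.

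The ligands that did not pass with basal shNup153-2 lay between Sema4c and Sema5a. Sema5a was at 45 and 49.9 CPM in basal shNup153-2 libraries and at 28.7, 9.03, 25.1 and 15.9 CPM in basal shControl libraries, without overlap (edgeR log2 fold change 1.24 ± 0.39 SE, BH-adjusted p = 0.0812). Sema7a had 165 and 154 CPM in basal shNup153-2 libraries, against 87.8, 111, 71.3 and 58 CPM in basal shControl libraries (edgeR log2 fold change 0.93 ± 0.26 SE, BH-adjusted p = 0.0612). Sema4c, a membrane-bound ligand of Plxnb2, pointed the other way with 22.6 and 15.7 CPM in basal shNup153-2 libraries and 38.7, 26.4, 29.5 and 38.1 CPM in basal shControl libraries (edgeR log2 fold change -0.82 ± 0.25 SE, BH-adjusted p = 0.0748). For none of these 3 did the libraries of the groups overlap. With so few libraries a group this is a weak criterion, and the share of all genes without overlap was not counted.

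Receptors with basal shNup153-2 ranged from a log2 fold change of -0.51 (SE 0.43) for Nrp2 to 0.90 (SE 0.45) for Nrp1, and 0 of 10 passed. Plxna1, a signalling partner of the neuropilins, came nearest, at 356 and 285 CPM in basal shNup153-2 libraries and 259, 164, 207 and 175 CPM in basal shControl libraries (edgeR log2 fold change 0.64 ± 0.23 SE, BH-adjusted p = 0.114). About 10.71% of Plxna1 exon bases overlap an antisense gene, and neither the labels nor the processing notes say whether counting used strand. Plxnd1 was at 514 and 449 CPM with basal shNup153-2 and at 612, 509, 313 and 387 CPM with basal shControl, groups that overlap (log2 fold change 0.05, 95% interval -0.62 to 0.72).

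With shNup153-1 members were called in both directions. Of 30 members tested, 2 rose (Sema6b and Plxnb3) and 5 fell (Sema4f, Sema4c, Sema3f, Plxnd1 and Nrp2), while 6.52% of all 14529 genes tested rose and 7.05% fell (edgeR, BH-adjusted p under 0.05). Among ligands 1 rose and 3 fell of 19, and among receptors 1 rose and 2 fell of 11. The median log2 fold change was -0.06 over the members and -0.02 over all genes.

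Sema6b was at 106 and 104 CPM in basal shNup153-1 libraries, clear of the 33.4 to 48.3 CPM of basal shControl libraries. Its log2 fold change was 1.29 (SE 0.19, edgeR BH-adjusted p = 0.00497), and it passed in each of the 6 fits that left out a library.

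The ligands that fell belong to the membrane-bound class 4 and the secreted class 3. Sema4f was at 17.1 and 21.6 CPM in basal shNup153-1 libraries, below the 47.8, 54.2, 37.8 and 51.3 CPM of basal shControl libraries (edgeR log2 fold change -1.33 ± 0.21 SE, BH-adjusted p = 0.0066). Sema4c was at 11.7 and 16.6 CPM in basal shNup153-1 libraries and at 26.4 CPM or more in every basal shControl library (edgeR log2 fold change -1.25 ± 0.27 SE, BH-adjusted p = 0.0191). Sema3f, a repellent that acts through Nrp2, was at 4.59 and 7.74 CPM in basal shNup153-1 libraries, against 16.8, 15, 11.6 and 15.5 CPM in basal shControl libraries (edgeR log2 fold change -1.28 ± 0.30 SE, BH-adjusted p = 0.0256). For all 3 the groups were apart, with replicate 1 of shNup153-1 lowest. An antisense gene overlaps 7.27% of the exon bases of Sema4c.

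Nrp2, the co-receptor of Sema3f, fell as well. It was at 17.5 and 28.2 CPM in basal shNup153-1 libraries and at 125, 53.5, 52.9 and 96.6 CPM in basal shControl libraries (edgeR log2 fold change -1.87 ± 0.47 SE, BH-adjusted p = 0.0354). Plxnd1 was at 108 and 192 CPM in basal shNup153-1 libraries, below all 4 basal shControl libraries at 313 to 612 CPM (edgeR log2 fold change -1.62 ± 0.35 SE, BH-adjusted p = 0.0189). Markers of endothelial cells, which are known to express Plxnd1, summed to 7.0 to 8.92 CPM with basal shNup153-1 and to 17.5 to 32.7 CPM with basal shControl. The sums hold 6 of the 8 listed markers. By group mean Egfl7 (6.35 against 16.2 CPM), Flt1 (0.302 against 6.89) and Kdr (0.0307 against 2.89) were lower with basal shNup153-1. Pecam1 (1.13 against 0.737) and Tek (0.156 against 0.0544) were higher, and Emcn was near 0 in both groups. In basal shNup153-2 libraries the endothelial sum was 9.16 to 10.6 CPM and Plxnd1 was at 514 and 449 CPM. The part of endothelial RNA in the Plxnd1 difference was not tested.

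Plxnb3, a plexin known from mouse oligodendrocytes, rested on few fragments. It had 68 and 63 counts (2.56 and 1.93 CPM) in basal shNup153-1 libraries and 0, 0, 1 and 6 counts in basal shControl libraries, a count ratio of 47.3 with a 95% counting interval of 22.3 to 120. The fitted log2 fold change was 5.39 (SE 0.90, edgeR BH-adjusted p = 0.00784). Beside it, 11 of the 15 oligodendrocyte lineage markers on the lines used were higher with shNup153-1, their sum was 807 to 831 CPM in basal shNup153-1 libraries and 121 to 291 CPM in basal shControl libraries, and no marker of the list was at 0 in either group. The part of oligodendrocyte RNA in the Plxnb3 difference was not tested.

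Without basal shNup153-1 replicate 1 only Sema6b passed, and without basal shNup153-1 replicate 2 Nrp2 did not. Each of these fits leaves 1 library of the hairpin, and over all genes too fewer passed than in the full fit. Nrp2 and Sema3f also missed the threshold without basal shControl replicate 1 (edgeR BH-adjusted p 0.0564 for Nrp2, 0.0534 for Sema3f) or replicate 4 (0.0739 for Nrp2, 0.061 for Sema3f). Over all genes, 1429 were called without basal shControl replicate 1 and 1194 without replicate 4, against 1971 in the full fit. Log2 fold changes over the 6 fits that left out 1 library were -2.26 to -1.56 for Nrp2 and -1.71 to -0.95 for Sema3f. In the full fit the members that did not pass ranged from Plxnc1 with a log2 fold change of -1.63 (SE 0.59, edgeR BH-adjusted p = 0.104) to Sema3e with 0.80 (SE 0.36, edgeR BH-adjusted p = 0.175). Plxna4 was in between at 96 and 144 CPM in basal shNup153-1 libraries and 379, 197, 236 and 178 CPM in basal shControl libraries (edgeR log2 fold change -1.07 ± 0.36 SE, BH-adjusted p = 0.0817).

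**Figure D3:**
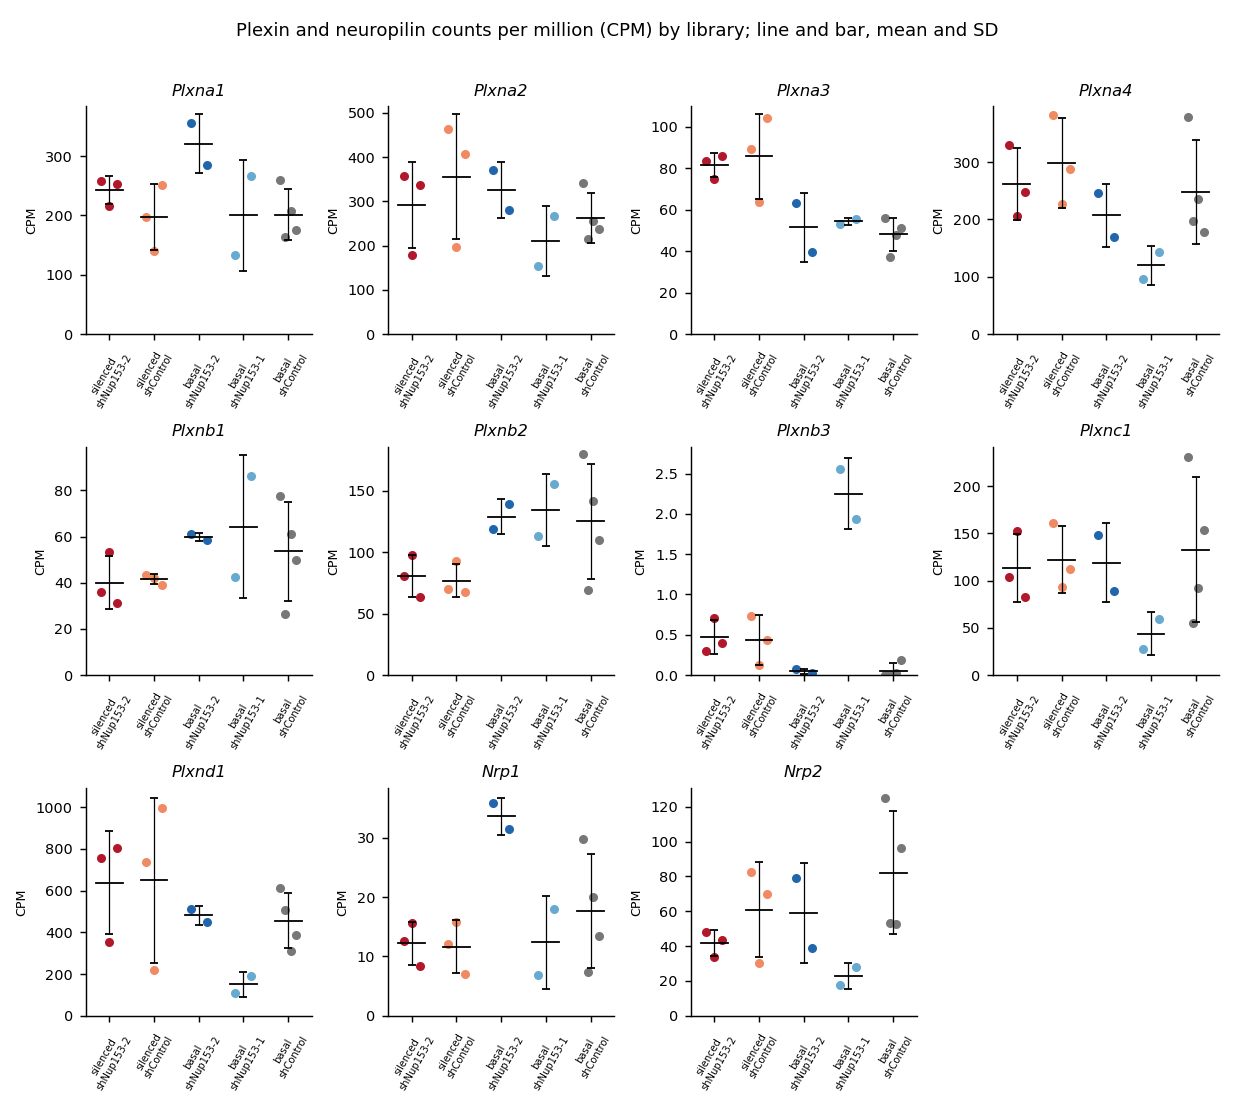
CPM of each plexin and neuropilin in each of the 14 libraries, by group, with points for libraries and a line and bar for the mean and SD; the y axes differ between genes. Plxnd1 lies at 108 and 192 CPM in basal shNup153-1 libraries and at 313 to 612 CPM in basal shControl libraries, and Plxnb3 is above 1 CPM in the basal shNup153-1 libraries only.

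The hairpins were set against each other directly, since Sema6b was the only member called with both. Between basal shNup153-2 and basal shNup153-1, 3 of 30 members were higher (Sema3a, Sema4f and Plxnd1) and 1 was lower (Plxnb3), where 2.81% of all 14529 genes tested were higher and 1.67% lower (edgeR, BH-adjusted p under 0.05). The median log2 difference was 0.52 over the members and 0.01 over all genes. Sema3a was at 108 and 97.6 CPM with shNup153-2 and at 23 and 30 CPM with shNup153-1, a log2 difference of 1.94 (SE 0.27, edgeR BH-adjusted p = 0.0117). With shNup153-1 both libraries were below every basal shControl library, with shNup153-2 both were above.

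Sema4f was at 45.3 and 38.5 CPM with basal shNup153-2 and at 17.1 and 21.6 CPM with basal shNup153-1 (edgeR log2 difference 1.10 ± 0.23 SE, BH-adjusted p = 0.0379). Plxnd1 was higher by a log2 difference of 1.67 (SE 0.38, edgeR BH-adjusted p = 0.0459) and Plxnb3 had 3 and 1 counts with shNup153-2 against 68 and 63 with shNup153-1 (fitted edgeR log2 difference -5.42 ± 1.16 SE, BH-adjusted p = 0.0396). For Sema6b the difference was 0.33 with a 95% interval of -0.18 to 0.83. The others that did not pass ranged from -0.51 for Sema4a to 1.44 for Plxnc1. Over the 4 fits that left out 1 library, log2 differences were 1.76 to 2.16 for Sema3a, 0.94 to 1.29 for Sema4f, 1.31 to 2.16 for Plxnd1 and -6.23 to -4.95 for Plxnb3. Each call rests on 2 libraries a hairpin, so each of these fits leaves 1 library of a hairpin. None of the calls passed without shNup153-2 replicate 1, shNup153-2 replicate 2 or shNup153-1 replicate 1. Without shNup153-1 replicate 2, Plxnb3 and Sema4f did not. The loss is not particular to these members, since over all genes too fewer passed in each of these fits than in the full fit.

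**Figure D4:**
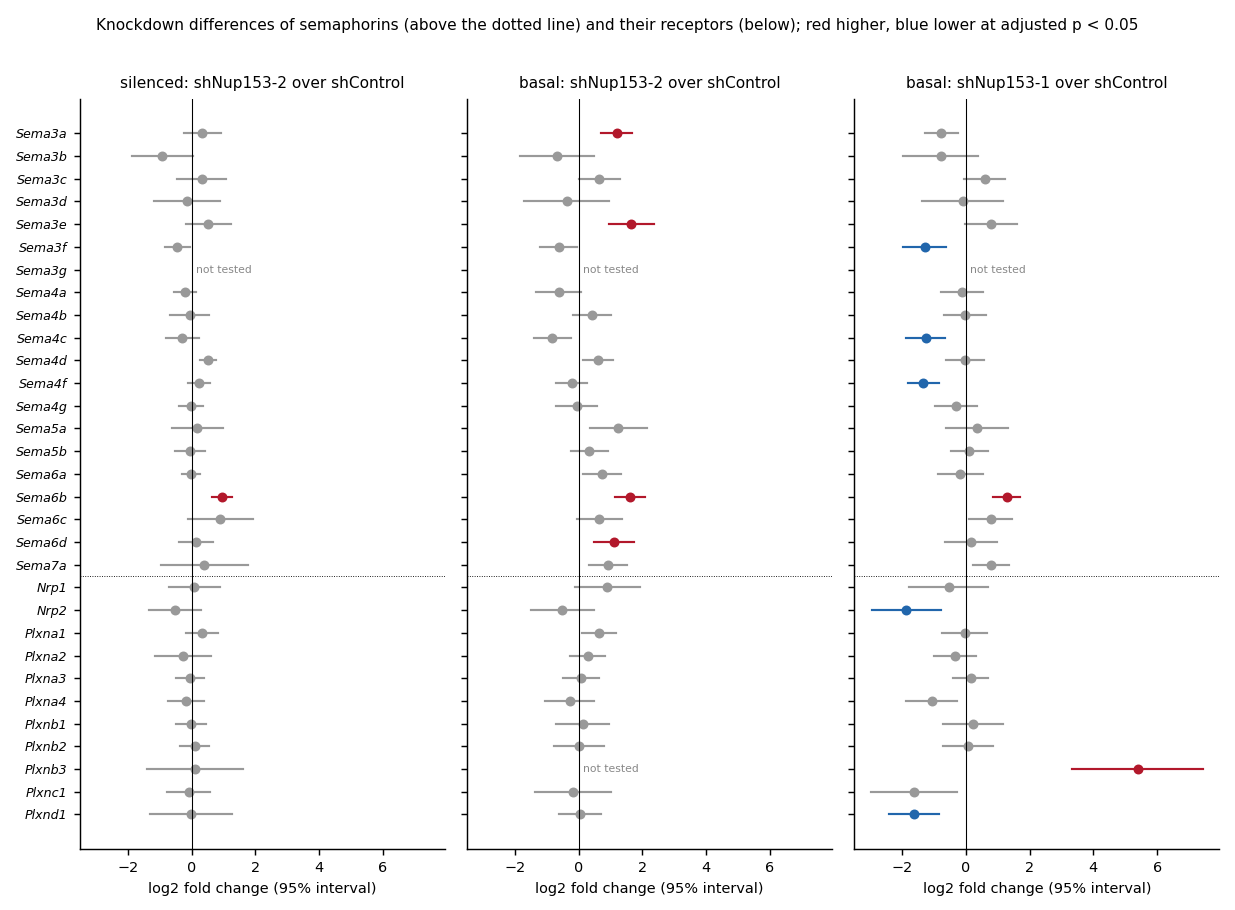
Log2 fold change of each member, with 95% intervals, for the 3 knockdown comparisons, each knockdown over its own shControl, with members that passed in red (higher) or blue (lower). Sema6b lies to the right of 0 in all 3 panels (0.96 silenced, 1.61 with basal shNup153-2 and 1.29 with basal shNup153-1), and Plxnd1, Nrp2, Sema4f, Sema4c and Sema3f lie to the left with basal shNup153-1.

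In silenced cultures Sema6b was the member that rose with shNup153-2 in the test that did not pair the replicates. Of 30 members tested, 1 rose with shNup153-2 and 0 fell, while 1.61% of all 18965 genes tested rose and 1.83% fell (edgeR, BH-adjusted p under 0.05). The median log2 fold change was -0.01 over the members and 0.01 over all genes. Sema6b was at 283, 205 and 266 CPM in silenced shNup153-2 libraries and at 132, 138 and 124 CPM in silenced shControl libraries. Every knockdown library was above every control library (edgeR log2 fold change 0.96 ± 0.14 SE, BH-adjusted p = 0.0228). It did not pass without silenced shControl replicate 1 (edgeR BH-adjusted p = 0.135) or 3 (0.0935) or without silenced shNup153-2 replicate 1 (0.125) or 3 (0.0788). Over all genes these fits called 12, 84, 4 and 99, against 654 in the full fit. The log2 fold change of Sema6b was 0.85 to 1.08 over the 6 fits that left out 1 library.

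The replicate numbers of the silenced libraries were taken to pair, a choice made from the counts. Deviations of same-numbered libraries from their group means correlated at 0.29, 0.57 and 0.62. The 0.29 of replicate 1 is near the 0.22 of basal shNup153-2 replicate 1, where no pairing was assumed. With the replicate number as a block, 11.7% of all genes were called higher and 10.3% lower, against 1.61% and 1.83% without it. The block fit called 6 members, all ligands and all higher. These were Sema6b (edgeR log2 fold change 0.94 ± 0.11 SE, BH-adjusted p = 0.00196), Sema6c (0.82 ± 0.13 SE, BH-adjusted p = 0.00581), Sema4d (0.52 ± 0.09 SE, BH-adjusted p = 0.00792), Sema7a (0.50 ± 0.11 SE, BH-adjusted p = 0.0185), Sema3c (0.31 ± 0.07 SE, BH-adjusted p = 0.025) and Sema3a (0.32 ± 0.09 SE, BH-adjusted p = 0.0482). Sema4d, the class 4 ligand of Plxnb1, was at 62.4, 58.7 and 54.6 CPM in silenced shNup153-2 libraries and at 42.4, 37.4 and 44.3 CPM in silenced shControl libraries, groups that do not overlap (without the block edgeR BH-adjusted p = 0.0518).

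Sema6c, a transmembrane relative of Sema6b, and Sema7a differed strongly between replicates. Sema6c was at 202, 68.7 and 194 CPM in silenced shNup153-2 libraries and at 91.4, 53 and 107 CPM in silenced shControl libraries (without the block log2 fold change 0.90, edgeR BH-adjusted p = 0.308). Sema7a was at 240, 97.3 and 298 CPM in silenced shNup153-2 libraries and at 164, 59.3 and 263 CPM in silenced shControl libraries (without the block 0.40, edgeR BH-adjusted p = 0.765). Replicate 2 was lowest in both groups for both genes, and within each replicate number the knockdown library was higher. Plxnd1 had the same low replicate, at 757, 355 and 802 CPM in silenced shNup153-2 libraries and 735, 218 and 993 CPM in silenced shControl libraries, with a log2 fold change of -0.01 without the block (95% interval -1.30 to 1.28) and of 0.16 with it (SE 0.18, edgeR BH-adjusted p = 0.557).

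Sema3c, a secreted ligand of both neuropilins, was at 90.5, 43.4 and 62.8 CPM in silenced shNup153-2 libraries and at 73.9, 39 and 47.2 CPM in silenced shControl libraries. Sema3a was at 19, 34.2 and 26.2 CPM in silenced shNup153-2 libraries and at 16.5, 25 and 22.3 CPM in silenced shControl libraries. For both the groups overlap, and without the block neither passed (edgeR BH-adjusted p = 0.651 for Sema3c and BH-adjusted p = 0.507 for Sema3a). With both replicate 2 libraries left out and no block, 4 members passed: Sema6b (log2 fold change 1.11, edgeR BH-adjusted p = 0.00876) and Sema6c (1.01, BH-adjusted p = 0.0142) rose, and Nrp2 (-0.71, BH-adjusted p = 0.0324) and Sema3f (-0.62, BH-adjusted p = 0.0469) fell. That fit called 1170 of all genes, against 654 with every silenced library. Astrocyte markers were highest in replicate 2 of both groups, at 1385 CPM in silenced shNup153-2 and 1217 CPM in silenced shControl, and their part in these differences was not tested.

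Silenced cultures were next set against basal ones within each virus. The silenced and basal libraries were deposited as separate count tables, so the state of the cultures and the table cannot be told apart. In shControl cultures 3 of 31 members were higher when silenced (Sema6b, Sema6c and Plxna3) and 2 were lower (Sema3e and Sema3a), against 6.09% higher and 6.27% lower of all 20926 genes tested (edgeR, BH-adjusted p under 0.05). Sema6b, at 132, 138 and 124 CPM in silenced shControl libraries and at 33.4 to 48.3 CPM in basal shControl libraries, had a log2 fold change of 1.59 (SE 0.16, edgeR BH-adjusted p = 0.000353).

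Sema6c was at 91.4, 53 and 107 CPM in silenced shControl libraries and at 21.9, 33.4, 19.5 and 32.7 CPM in basal shControl libraries (edgeR log2 fold change 1.59 ± 0.37 SE, BH-adjusted p = 0.0176). Plxna3, an A-type plexin that transmits Sema3f signals, was at 89, 63.9 and 104 CPM in silenced shControl libraries and at 56, 37.3, 47.7 and 51.3 CPM in basal shControl libraries (edgeR log2 fold change 0.78 ± 0.21 SE, BH-adjusted p = 0.0294). Neither gene's groups overlapped. Sema3e was at 2.15, 3.2 and 2.75 CPM in silenced shControl libraries, under the 6.85 to 15.8 CPM of basal shControl libraries (edgeR log2 fold change -1.98 ± 0.31 SE, BH-adjusted p = 0.00316). Sema3a was at 16.5, 25 and 22.3 CPM in silenced shControl libraries, also below every basal shControl library at 35.7 to 55.1 CPM (edgeR log2 fold change -1.11 ± 0.22 SE, BH-adjusted p = 0.0093).

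Sema6b and Sema3e passed in each of the 7 fits that left out a library. Plxna3, Sema3a and Sema6c missed the threshold without silenced shControl replicate 1 (edgeR BH-adjusted p 0.0543 to 0.092), Plxna3 (0.12) and Sema6c (0.0707) without silenced shControl replicate 3, and Plxna3 without basal shControl replicate 3 (0.0593). Without basal shControl replicate 2, 10 members were called, and with both silenced replicate 2 libraries left out 8 were. Over all genes these fits called 3426 and 2404, against 2586 in the full fit. Without silenced shControl replicate 1 or 3, 1069 and 1206 genes were called, and without basal shControl replicate 3, 1813. Among the 26 members that did not pass, log2 fold changes ran from -1.19 (SE 0.38) for Sema5a to 3.00 (SE 0.94) for Plxnb3, which had 45 counts over the silenced shControl libraries and 7 over the basal ones.

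With shNup153-2, 4 of 31 members were higher when silenced and 6 lower, against 9.39% higher and 12.3% lower of all 20926 genes tested (edgeR, BH-adjusted p under 0.05). Over all genes too, more were called here than in shControl cultures, 4548 against 2586. Among ligands 4 were higher and 5 lower of 20, and Nrp1 was the 1 receptor, lower. Sema6b was at 283, 205 and 266 CPM in silenced shNup153-2 libraries and at 142 and 122 CPM in basal shNup153-2 libraries (edgeR log2 fold change 0.89 ± 0.20 SE, BH-adjusted p = 0.012). Sema6c was at 202, 68.7 and 194 CPM in silenced shNup153-2 libraries and at 54.2 and 31.8 CPM in basal shNup153-2 libraries (edgeR log2 fold change 1.82 ± 0.47 SE, BH-adjusted p = 0.0213).

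The other ligands that were higher belong to class 4. Sema4a, known from T cells and the retina, was at 27.7, 35.6 and 28.4 CPM in silenced shNup153-2 libraries and at 13.8 and 15.8 CPM in basal shNup153-2 libraries (edgeR log2 fold change 1.01 ± 0.26 SE, BH-adjusted p = 0.0221). Sema4f was at 79.4, 70.2 and 66.7 CPM in silenced shNup153-2 libraries and at 45.3 and 38.5 CPM in basal shNup153-2 libraries (edgeR log2 fold change 0.75 ± 0.20 SE, BH-adjusted p = 0.0213). For each of these 4 genes every silenced library was above both basal ones.

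Among the ligands that were lower, Sema3e was at 3.56, 5.24 and 2.71 CPM in silenced shNup153-2 libraries and at 29.7 and 36 CPM in basal shNup153-2 libraries (edgeR log2 fold change -3.14 ± 0.35 SE, BH-adjusted p = 0.000419). Sema3a was at 19, 34.2 and 26.2 CPM in silenced shNup153-2 libraries and at 108 and 97.6 CPM in basal shNup153-2 libraries (edgeR log2 fold change -1.99 ± 0.26 SE, BH-adjusted p = 0.000839). For both secreted ligands every silenced library was below both basal ones.

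Membrane-bound ligands fell too. Sema5a, which carries thrombospondin repeats, was at 13.1, 8.14 and 8.83 CPM in silenced shNup153-2 libraries and at 45 and 49.9 CPM in basal shNup153-2 libraries (edgeR log2 fold change -2.27 ± 0.44 SE, BH-adjusted p = 0.0066). Sema6d was at 47.4, 65.2 and 37.4 CPM in silenced shNup153-2 libraries and at 169 and 151 CPM in basal shNup153-2 libraries (edgeR log2 fold change -1.71 ± 0.30 SE, BH-adjusted p = 0.00394). Sema6a, a ligand of Plxna2 and Plxna4, was at 40.7, 35.9 and 33.9 CPM in silenced shNup153-2 libraries and at 106 and 85.9 CPM in basal shNup153-2 libraries (edgeR log2 fold change -1.41 ± 0.23 SE, BH-adjusted p = 0.00314). In none of the 3 did any silenced library reach a basal one.

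Nrp1, the obligate co-receptor of Sema3a, was at 12.5, 15.7 and 8.35 CPM in silenced shNup153-2 libraries and at 35.9 and 31.4 CPM in basal shNup153-2 libraries (edgeR log2 fold change -1.50 ± 0.48 SE, BH-adjusted p = 0.0449). Nrp1 ordered the libraries as the astrocyte sum did in both silenced groups, in basal shNup153-1 and in basal shControl libraries. So did Sema6d and Plxnb2. In basal shNup153-2 libraries the order of Nrp1 was opposite, with an astrocyte sum of 2345 CPM in replicate 1 and 2719 CPM in replicate 2. Astrocyte markers summed to 256 to 1385 CPM in silenced and 2345 to 2719 CPM in basal shNup153-2 libraries, and GABAergic neuron markers to 393 to 461 CPM in silenced and 1103 to 1154 CPM in basal ones; their part in the differences between silenced and basal cultures was not tested.

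Sema3e, Sema3a, Sema5a, Sema6a and Sema6d passed in each of the 5 fits that left out a library. Without basal shNup153-2 replicate 1 or 2, when 1 basal shNup153-2 library is left, the other 5 calls did not pass. Over all genes too, fewer passed in each of these fits than in the full fit. Nrp1 also missed the threshold without silenced shNup153-2 replicate 1 (edgeR BH-adjusted p = 0.1), replicate 2 (0.0506) or replicate 3 (0.132). So did Sema4f (0.0701) and Sema6c (0.0648) without replicate 1, and Sema6c (0.0625) without replicate 3. With both silenced replicate 2 libraries left out, 10 members were again called, 9 of them shared with the full fit, and Sema4a was at 0.0506. Over all genes 4324 were called in that fit and 4548 in the full fit. Without silenced shNup153-2 replicate 1, 2 or 3 alone, 2065, 4003 and 2053 genes were called.

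**Figure D5:**
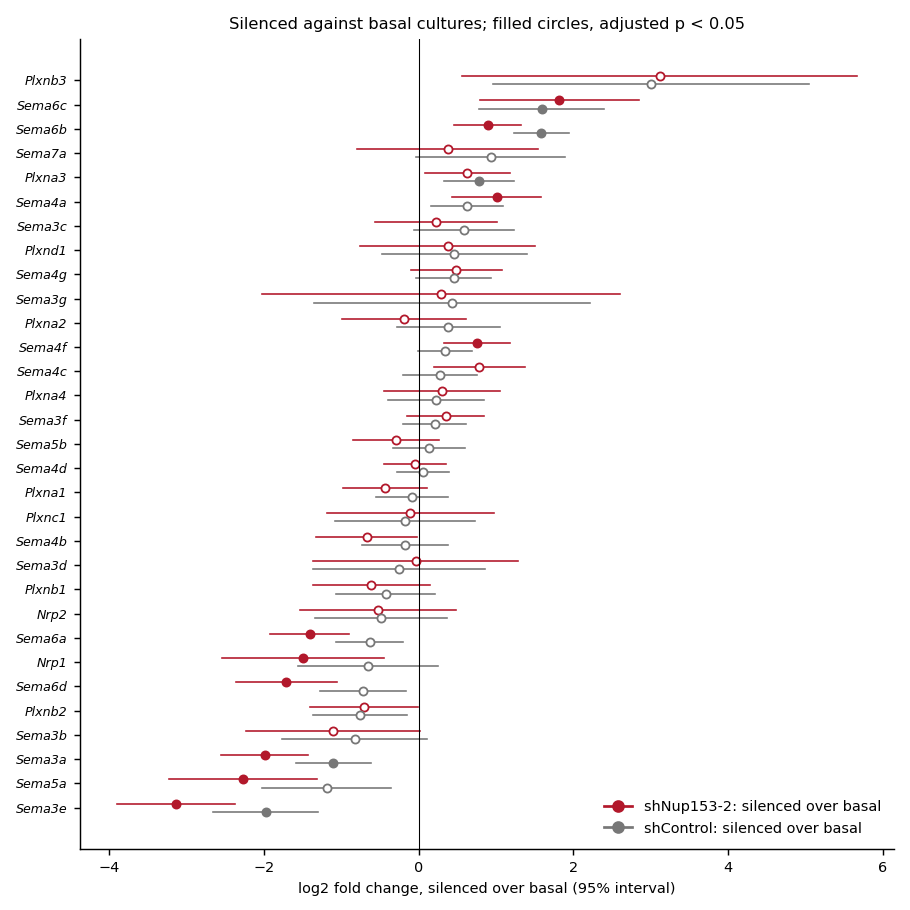
Log2 fold change of each member, with 95% intervals, for silenced over basal cultures with shNup153-2 (red) and with shControl (grey); filled circles passed the test, and rows run from high to low in shControl cultures. Sema6b and Sema6c lie to the right of 0 and Sema3a and Sema3e to the left with both viruses, filled in each case.

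Whether the shNup153-2 difference itself depended on the state of the cultures was tested as an interaction, in which an offset of a gene between tables cancels. No member passed, and 0 of all 20926 genes did (edgeR, BH-adjusted p under 0.05). By an unadjusted p under 0.05, 5 of 31 members would be counted, all ligands with a smaller difference in silenced cultures, beside 11.4% of all genes. These were Sema6b (log2 interaction -0.69 ± 0.25 SE), Sema3a (-0.89 ± 0.33), Sema3e (-1.16 ± 0.45), Sema6a (-0.78 ± 0.30) and Sema6d (-0.99 ± 0.39), with edgeR BH-adjusted p of 0.361 to 0.383. DESeq2 called 0 members and 285 genes, and limma-voom 0 members and 1 gene. For no member was the shNup153-2 difference shown to differ between states.

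The remaining members gave no call in any of the 7 comparisons without the block: Sema3b, Sema3c, Sema3d, Sema3g, Sema4b, Sema4d, Sema4g, Sema5b and Sema7a of the ligands and Plxna1, Plxna2, Plxna4, Plxnb1, Plxnb2 and Plxnc1 of the receptors. Plxnb2, the receptor of Sema4c, had a log2 fold change of 0.02 (95% interval -0.76 to 0.80) with basal shNup153-2 and of 0.08 (-0.71 to 0.86) with basal shNup153-1. In silenced shNup153-2 cultures its log2 fold change was 0.10 (-0.35 to 0.54). Sema3g had 17, 27, 10, 9 and 27 counts over silenced shNup153-2, silenced shControl, basal shNup153-2, basal shNup153-1 and basal shControl libraries, too few to compare groups at this depth.

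Other genes of the pathway were taken from lists of co-receptors, cytoplasmic transducers and further neuropilin ligands. Of 11 co-receptors, 1 rose and 1 fell with basal shNup153-1, where 6.52% of all genes tested rose and 7.05% fell, and 0 rose and 2 fell with basal shNup153-2, where 5.91% rose and 3.64% fell. Kdr, a VEGF receptor that takes part in semaphorin signalling, had 2 counts over the basal shNup153-1 libraries and 510 over the basal shControl libraries, a ratio of 0.00991 (95% counting interval 0.0012 to 0.036). With basal shNup153-2 it had 11 counts, a ratio of 0.0389 to control (0.0193 to 0.0702), and it is itself an endothelial marker. Cntn2, an adhesion molecule of axons, rose with basal shNup153-1 (edgeR log2 fold change 0.87 ± 0.20 SE, BH-adjusted p = 0.0234) and Itgb1, an integrin subunit that binds Sema7a, fell with basal shNup153-2 (-1.0 ± 0.19 SE, edgeR BH-adjusted p = 0.0207).

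Of 30 cytoplasmic transducers, 2 rose and 0 fell with each hairpin at basal state, close to the 6.52% (shNup153-1) and 5.91% (shNup153-2) of all genes that rose. Limk1, the kinase that phosphorylates cofilin, rose with basal shNup153-2 (edgeR log2 fold change 1.03 ± 0.18 SE, BH-adjusted p = 0.0148) and with basal shNup153-1 (1.59 ± 0.26 SE, edgeR BH-adjusted p = 0.00677). Mical2, of the family that oxidises actin, rose with basal shNup153-2 (0.90 ± 0.23 SE, edgeR BH-adjusted p = 0.0486), and Rras, a GTPase that plexins inactivate, with basal shNup153-1 (1.28 ± 0.36 SE, edgeR BH-adjusted p = 0.0475). In silenced shNup153-2 cultures Mical3 rose (0.68 ± 0.10 SE, edgeR BH-adjusted p = 0.0213) and Rap1b, a further GTPase substrate of plexins, fell (-0.80 ± 0.12 SE, edgeR BH-adjusted p = 0.0228). The median log2 fold change of the 30 was 0.06 with basal shNup153-2, 0.08 with basal shNup153-1 and 0.04 in silenced shNup153-2 cultures.

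Among 8 further neuropilin ligands and their receptors, Vegfb rose with basal shNup153-2 (edgeR log2 fold change 0.84 ± 0.16 SE, BH-adjusted p = 0.0207) and with basal shNup153-1 (0.97 ± 0.17 SE, edgeR BH-adjusted p = 0.00879). Flt1, the receptor of Vegfb and an endothelial marker, had 19 counts over the basal shNup153-1 libraries and 1090 over the basal shControl libraries (fitted edgeR log2 fold change -4.48 ± 0.66 SE, BH-adjusted p = 0.00526). In silenced cultures none of the 7 tested passed, and no gene of the 3 lists passed the test of the interaction.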

How the data were processed

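Per the submitters' processing notes, the build was mm10 and the tools included FastQC and featureCounts 2.0.1; the aligner, annotation and strand setting are not stated there. The authors deposited raw counts, 1 table for basal and 1 for silenced libraries, and these counts were used as deposited. Per the labels' protocols, libraries were poly(A)-selected and strand-specific. Of the basal columns 2 carry the same name and were not used, which leaves 14 libraries; the shNup153-1 columns correlate with shControl at 0.975 over the 16399 lines used (log scale) and at 0.0923 below, where they are out of register with the gene names.

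Counts were tested with edgeR 4.0.16 (quasi-likelihood, TMM factors, filterByExpr with a minimum count of 10) in R 4.3.3, with Benjamini-Hochberg adjustment over all genes of a fit and a threshold of 0.05; DESeq2 1.42.0 and limma-voom (limma 3.58.1) were alternatives. The shNup153-1 comparison and the hairpin difference used the 3 basal groups over the lines in register, the other knockdown comparisons their own 2 groups, and the comparisons between states and the interaction a joint fit without shNup153-1. Standard errors are the absolute log2 fold change over the square root of F. The fits were tested on simulated data. Per-library depth sets the precision of low counts, and counting intervals cover counting error only. Library totals were taken over all lines. Levels per kilobase used GENCODE vM21 exon lengths.

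Groups came from sample titles. Each replicate is 1 pooled litter per the labels. In silenced libraries, deviations from the group means of same-numbered samples correlated at 0.29, 0.57 and 0.62, and these numbers were taken to pair the samples. The reported tests, the comparisons between states and the interaction did not use this pairing. It entered only the fits with the replicate number as a block, given beside them. Values per library are given for every member called in any comparison, other members by ranges; genes of the pathway lists are named where called, at most 4 a list by the smallest p. Sema4d, Sema7a, Sema3c, Plxna1, Plxna4 and Plxnb2 are given beyond this rule and were chosen after their values were seen. The members, lists and markers were chosen with earlier results of these data known. Motifs were searched on both strands of the 250 bases before RefSeq starts. Whether the libraries of groups overlap is given as description only, and the share of all genes without overlap was not counted.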

Additional observations from a re-analysis of the deposited data

Results flagged for a closer look

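Of 31 basal shControl groups of 4 libraries looked at, 1 held a library far from the others: Plxnb3 was at 0.186 CPM (6 counts) in replicate 4 and at 0.03 CPM or less in the other 3. For normally distributed values chance gives such a gap in about 1 in 20 groups. The Plxnb3 counts lie near 0, where that rate need not hold. The hairpins differed from each other at 4 members by a direct test of the difference, basal shNup153-2 over basal shNup153-1: Plxnb3 with a log2 difference of -5.42, Plxnd1 with 1.67, Sema3a with 1.94 and Sema4f with 1.10.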

How the results depend on the processing

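The number of members called was within 1.5 times the reported one under other size factors, no filter on low counts, limma-voom and another choice of basal groups, for every comparison where these were run. DESeq2 called 11 members with basal shNup153-1 (reported 7), 7 with basal shNup153-2 (4), 2 with silenced shNup153-2 (1) and 9 between silenced and basal shControl (5). Over all genes it called 3146 (reported fit 1971), 3624 (1880), 1845 (654) and 3690 (2586). The joint fit called 7 members and 3833 genes with basal shNup153-2. A fit with the replicate number as a block called 0 members and 0 genes both with basal shNup153-1 and between the hairpins. It called 6 members and 4161 genes with silenced shNup153-2, and 8 members and 2276 genes between silenced and basal shControl. The cause of these changes was not tested. With basal shNup153-2 it called 6 members and 2145 genes, between silenced and basal shNup153-2 11 members and 4292 genes, and for the interaction 0 members and 2 genes. Basal replicate numbers were not taken to pair, with correlations of -0.58 and -0.65 for shNup153-1 and of 0.22 and -0.03 for shNup153-2. Leaving out 1 library at a time gave 1 to 10 calls with basal shNup153-1, 0 to 7 with basal shNup153-2, 0 to 2 between hairpins, 0 to 1 with silenced shNup153-2, 2 to 10 between silenced and basal shControl, 5 to 10 between silenced and basal shNup153-2 and 0 for the interaction. Leaving out both silenced replicate 2 libraries, chosen after seeing the data, gave 4 calls with silenced shNup153-2 and 8 between silenced and basal shControl. Over all genes it gave 1170 and 2404 calls, against 654 and 2586 in the reported fits. No member called in a comparison changed sign there under these settings. Among members not called, followed only under the block in silenced shNup153-2 against silenced shControl, Plxnd1 (0.16 with the block, -0.01 without) and Sema4g (0.01 and -0.01) did. Depth limits Plxnb3 and Sema3g, and basal knockdown groups hold 2 libraries each.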
